A study of Mus musculus with 8 samples.

Results

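The genes described here are 8 parts of the machinery that starts, carries out or restrains apoptosis: the caspases Casp2, Casp6, Casp8 and Casp9, the apoptosome genes Apaf1 and Cycs, the caspase inhibitor Xiap and its antagonist Diablo. They were chosen by symbol, with earlier results of these data known, and for each symbol the entry with the highest mean level was used. All 8 were present among the 13681 symbols of a table of RNA levels from 8 mouse thymic lymphomas, tumours of developing T cells. RNA was sequenced from whole tumour tissue of p53-/- C57BL/6 mice, collected 48 h after an adenovirus had been injected into the lymphoma at 10 weeks of age. The control group was 2 tumour samples labelled ΔNfl/fl;p53-/- that received Ad-mCherry, a virus carrying a fluorescent marker. The ΔNp63-labelled group was 3 tumour samples of genotype ΔNp63Δ/Δ;p53-/-, and the ΔNp73-labelled group was 3 tumour samples of genotype ΔNp73Δ/Δ;p53-/-, both given Ad-CRE-mCherry, which also carries Cre recombinase. The ΔN forms of p63 and p73, which belong to the p53 family, are made without the N-terminal transactivation domain. All 8 samples thus carry the p53-/- label and received a virus, and the controls alone received no Cre, so Cre and deletion cannot be told apart against control. The control label does not say which gene is floxed, and the labels do not say which cells of the tumour the virus entered. Nothing in the labels shows that the libraries of a group came from separate animals, so the p-values measure the spread between these samples, which may be technical. Replicate numbers were assigned here in sample order and only name a sample.

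Caspases are proteases that are made as inactive precursors, so their RNA level is a measure of supply and not of activity. In the receptor route, ligands such as Fas ligand and TRAIL bind death receptors, which gather the initiator caspase-8. In the mitochondrial route, cytochrome c leaves the mitochondrion and joins Apaf1 in the apoptosome, a wheel-shaped complex that activates caspase-9. Caspase-2 is activated on a separate platform, the PIDDosome, and is known for its links to cell cycle faults. Active initiators cut the executioner caspases, among them caspase-6, which cleaves lamins. XIAP binds and blocks caspases, and Diablo (also called Smac), released with cytochrome c, displaces it. In the thymus this machinery is known for removing T cell precursors that fail selection.

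Levels are FPKM, a read count divided by transcript length and library size, which the authors had quantile-normalised so that all libraries share 1 distribution. Sequencing depth is unknown, because counts are not part of the table. Differences are given as log2 fold changes of FPKM + 1, with the standard error (SE) and the adjusted p of limma, a linear model fitted over all 12921 genes tested. The library of ΔNp63-labelled replicate 2 was unlike the others: its median correlation across genes with the other libraries was 0.847, against 0.915 to 0.956 for the other 7, and the differences of the 8 genes from control are therefore also given without it. All 18 thymocyte and T cell markers were above 0 FPKM in every library, with Cd3e between 235 and 430.0 FPKM. Their summed level was 6830 to 7610 FPKM in controls, 3250 to 5440 in the ΔNp63-labelled group and 3040 to 4880 in the ΔNp73-labelled group. The summed level of 13 macrophage and monocyte markers was 400.0 to 460.0 FPKM in controls, 450.0 to 1160 in the ΔNp63-labelled group and 1060 to 1390 in the ΔNp73-labelled group. The sum of 16 proliferation genes was 1360 to 1400 FPKM in controls, 375 to 1190 in the ΔNp63-labelled group and 379 to 614 in the ΔNp73-labelled group. In bulk tissue, fewer cells of a type and less RNA per cell cannot be told apart. Trp63 was 5.21 and 3.38 FPKM in the controls, 6.57, 1.05 and 9.91 in the ΔNp63-labelled samples and 13.8, 11.3 and 6.38 in the ΔNp73-labelled samples, so its level was not lower in every ΔNp63-labelled library. Whether the entry covers the deleted stretch was not tested, so it does not check the ΔN deletion. Trp73 was not found among the symbols of the table, so no level can be given for it. Trp53 had 81.0 and 67.6 FPKM in the controls and 11.0 to 75.9 in the other 6 libraries. RNA assigned to Trp53 was thus measured in all 8 libraries labelled p53-/-, and whether that entry covers the deleted stretch was not tested.

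The upstream sequences of 3 genes are shown: Casp2 and Casp8, whose values by the entries used lay apart from control in both Cre groups, and Diablo, whose values in the ΔNp73-labelled group lay below all other libraries. The Casp8 sequence belongs to its other entry, NM_001080126, whose ΔNp63-labelled values lay on both sides of the controls. Each is the 250 bases before the RefSeq transcription start in build GRCm38.p6, 5′ to 3′ on the gene's strand. The expression table was made on another build, mm9, and no expression coordinate is given. Capitals mark every match, on either strand, to 7 motifs chosen after the sequences had been seen: an E2F site (TTTCCCGC, TTTCGCGC, TTTGCCGC or TTTGGCGC), NRF1 (GCGCATGC), CRE (TGACGTCA), the GC box (GGGCGG), the box named for its letters CCAAT, an interferon-stimulated response element (GAAA, any 2 bases, GAAA) and the p53 half-site, named without its letters.
Casp2, chr6:42264735-42264984, plus strand: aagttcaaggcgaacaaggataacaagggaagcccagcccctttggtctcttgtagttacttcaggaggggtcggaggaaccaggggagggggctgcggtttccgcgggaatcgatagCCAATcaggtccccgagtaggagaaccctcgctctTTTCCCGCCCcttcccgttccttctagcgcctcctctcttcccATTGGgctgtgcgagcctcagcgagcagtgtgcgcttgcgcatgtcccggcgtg
Casp8, chr1:58802252-58802501, plus strand: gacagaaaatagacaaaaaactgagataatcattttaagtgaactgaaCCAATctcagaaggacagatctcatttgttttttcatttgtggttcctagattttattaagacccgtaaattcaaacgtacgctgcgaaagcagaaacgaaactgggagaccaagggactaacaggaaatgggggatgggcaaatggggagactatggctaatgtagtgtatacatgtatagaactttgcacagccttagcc
Diablo, chr5:123524165-123524414, minus strand: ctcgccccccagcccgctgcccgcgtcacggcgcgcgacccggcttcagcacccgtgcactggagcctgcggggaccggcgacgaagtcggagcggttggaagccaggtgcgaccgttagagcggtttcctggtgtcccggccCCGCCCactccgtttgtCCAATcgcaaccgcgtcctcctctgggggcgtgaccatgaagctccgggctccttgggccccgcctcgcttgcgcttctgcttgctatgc

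The 3 sequences differed in base composition: G and C made up 39.6% of the Casp8 window, 60.4% of the Casp2 window and 70.4% of the Diablo window, beside a median of 52.4% over 32851 mouse promoters. CpG pairs numbered 5 in Casp8, 17 in Casp2 and 30 in Diablo, with a median of 6 over all promoters. Casp2 was the only 1 of the 8 genes with a match to the E2F letters, TTTCCCGC beginning 97 bases before the start, which 1.86% of all promoters hold. That match overlaps a GC box whose first base lies 93 bases before the start, and the window also holds a CCAAT box in each direction. Casp8 holds 1 CCAAT box, and Diablo holds a GC box and a CCAAT box. GC boxes were found in 32.7% and CCAAT boxes in 33.8% of all promoters. The NRF1 letters were found in Apaf1 and Cycs (2.26% of all promoters) and the CRE letters in Cycs (1.55%). None of the 8 genes held the interferon element (2.98% of promoters) or the p53 half-site (7.13%) in this window. These matches describe letters and not binding.

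Casp8, the initiator caspase of the death receptors, was higher in all 6 Cre-treated tumours than in either control by its RefSeq entry NM_009812. This entry stood at 8.06 and 7.28 FPKM in the controls. It stood at 10.5, 12.2 and 10.4 in the ΔNp63-labelled samples and at 12.6, 12.0 and 12.1 in the ΔNp73-labelled samples. The groups did not overlap with control, and the means were 7.67 ± 0.546 (SD, n = 2), 11.0 ± 1.02 (n = 3) and 12.2 ± 0.29 (n = 3), or 43.9% and 59.3% above the control mean. With all 8 libraries the difference did not pass the threshold of 0.05 in limma: it was 0.47 (SE 0.14, adjusted p = 0.258) for the ΔNp63-labelled group and 0.61 (SE 0.14, adjusted p = 0.0949) for the ΔNp73-labelled group. When ΔNp63-labelled replicate 2 was left out, Casp8 by this entry rose in both, by 0.40 (limma adjusted p = 0.028) and 0.61 (limma adjusted p = 0.00348). NM_009812 was kept for its higher mean over all 8 libraries, although the control means of the 2 Casp8 entries were alike, 7.67 and 7.65 FPKM. That choice favours an entry that is high in the Cre groups, so these differences are not independent of it.

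The table holds a second Casp8 entry, NM_001080126, which has the same coding exons and shares 7 of its 9 exons with NM_009812, but starts 7128 bases downstream (GENCODE M21). The Casp8 sequence printed above lies directly before its start, and none is shown for NM_009812. It measured 8.11 and 7.20 FPKM in the controls, 10.5, 0.149 and 8.77 in the ΔNp63-labelled samples, and 8.31, 10.6 and 8.62 in the ΔNp73-labelled samples. In 7 libraries it made up 39.8% to 50.2% of the Casp8 signal, and in ΔNp63-labelled replicate 2 it made up 1.21%. The 3 ΔNp73-labelled samples, at 39.8%, 46.8% and 41.6%, all lay below the controls at 50.2% and 49.7%. Summed over both entries, Casp8 was 16.2 and 14.5 FPKM in the controls, 21.0, 12.4 and 19.2 in the ΔNp63-labelled group and 20.9, 22.6 and 20.7 in the ΔNp73-labelled group. The summed level of ΔNp63-labelled replicate 2 was thus the lowest of the 8 libraries, although its NM_009812 level was among the highest. The summed difference was 0.15 (limma adjusted p = 0.808) and 0.46 (limma adjusted p = 0.269), and without that replicate the sum rose by 0.37 (limma adjusted p = 0.0436) and 0.46 (limma adjusted p = 0.0119). Tested as a row of its own without that replicate, NM_001080126 did not pass. It was at 0.30 (limma adjusted p = 0.208) and 0.23 (limma adjusted p = 0.25). The split between entries that share most of their exons is an estimate of the authors' quantification.

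**Figure D1:**
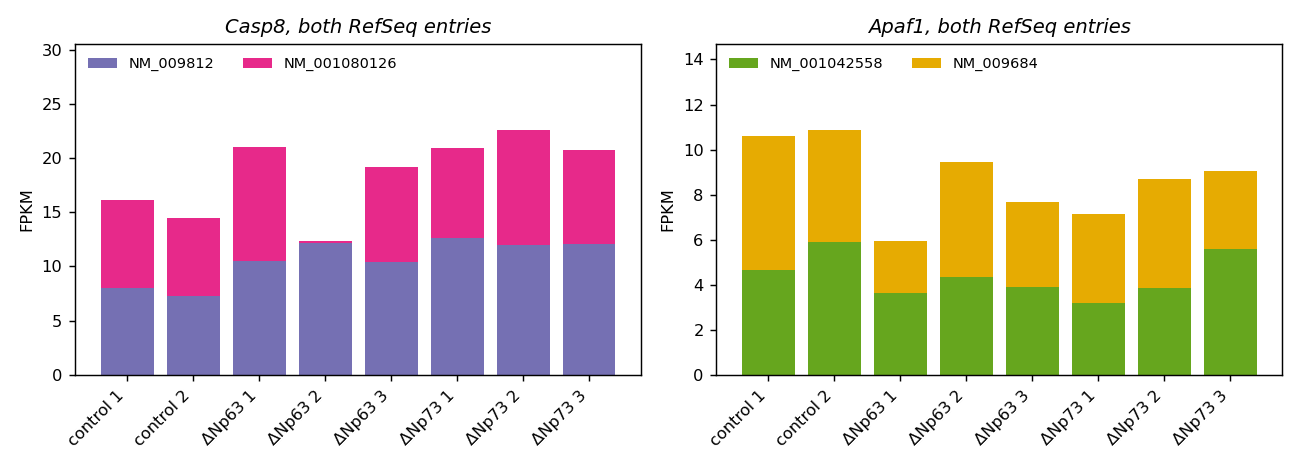
Stacked bars give the FPKM of both RefSeq entries of Casp8 and of Apaf1 in each of the 8 libraries, with the library on the x axis and FPKM on the y axis. The Casp8 bar of ΔNp63-labelled replicate 2 consists almost wholly of NM_009812, with NM_001080126 at 0.149 FPKM, while both entries have similar heights in the controls.

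The means of the macrophage and interferon lists stood with Casp8, above both controls by more than 1 on the log2 scale, in 5 of the 6 Cre-treated libraries. Not every single gene of these lists did so. The mean log2(FPKM + 1) of 12 interferon response genes was 3.11 in both controls, 4.73 and 4.85 in ΔNp63-labelled replicates 1 and 3, and 5.0, 5.58 and 4.27 in the ΔNp73-labelled samples. The macrophage list stood at 3.58 and 3.85 in the controls, at 5.16 and 5.06 in those ΔNp63-labelled replicates and at 5.05 to 5.56 in the ΔNp73-labelled samples. In ΔNp63-labelled replicate 2 the interferon list was at 3.14 and the macrophage list at 3.99, near the controls, while NM_009812 was at 12.2 FPKM. Summed over both entries, however, Casp8 in that library was at 12.4 FPKM, the lowest of the 8 libraries. The part of other cells in the Casp8 result was not tested beyond these values.

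**Figure D2:**
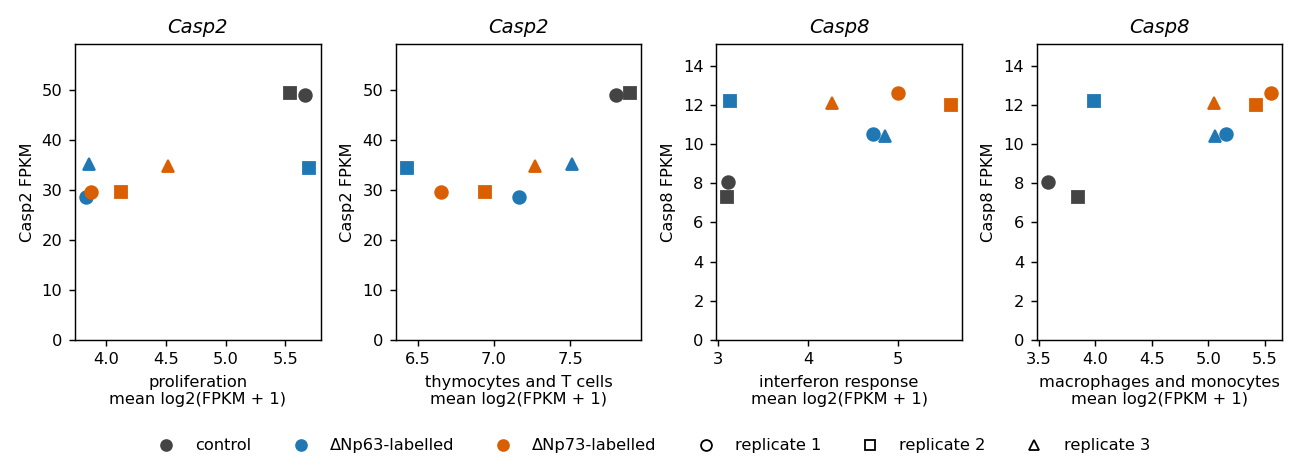
Each point is 1 library, with Casp2 or Casp8 (NM_009812) in FPKM on the y axis and the mean log2(FPKM + 1) of a marker list on the x axis. ΔNp63-labelled replicate 2 lies near the controls on the proliferation, interferon and macrophage axes. On the thymocyte axis it lies farthest from them, at 6.43 against 7.80 and 7.89. It lies with the other Cre-treated libraries on both gene axes, at 34.5 FPKM for Casp2 and 12.2 for Casp8 (NM_009812). The sum of both Casp8 entries, not drawn here, was 12.4 FPKM in that library, the lowest of the 8.

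The list of 13 death receptor genes around caspase-8 had 8 above and 5 below control in each Cre group, and 0 passed the adjusted threshold with all libraries, where 0.0929% of all genes passed in the ΔNp63-labelled comparison and 0.0542% in the ΔNp73-labelled one. At an unadjusted p under 0.05, 1 of the 13 was higher and 0 lower in the ΔNp63-labelled group, beside 5.96% and 7.03% of all genes, and 2 were higher and 0 lower in the ΔNp73-labelled group, beside 11.4% and 9.83%. The median difference was 0.09 and 0.37, beside -0.02 and -0.07 over all genes. Tnf, a cytokine that signals through a death receptor, measured 1.74 and 0.804 FPKM in controls, 3.98, 2.34 and 4.14 in the ΔNp63-labelled group and 3.35, 3.52 and 2.20 in the ΔNp73-labelled group, without overlap. Tnfsf10, the gene of TRAIL, was at 6.61 and 6.78 FPKM in controls and at 9.93 to 13.8 in 5 Cre-treated libraries, but at 4.87 in ΔNp63-labelled replicate 2. Fas, a death receptor, was at 37.6 and 45.8 FPKM in controls, at 36.2, 14.8 and 39.1 in the ΔNp63-labelled group and at 33.9, 31.1 and 30.6 in the ΔNp73-labelled group. Fas was thus below both controls in the ΔNp73-labelled samples. The receptors of the ligands named lay above both controls there and are given after their values were seen: Tnfrsf1a, a receptor of Tnf, was at 98.9 to 110.0 FPKM against 72.6 and 80.0, and Tnfrsf10b, the receptor of TRAIL, was at 3.23 to 4.11 against 2.21 and 3.04. With ΔNp63-labelled replicate 2 left out, 2 list genes rose and 0 fell in the ΔNp63-labelled group, beside 11.7% and 10.8% of all genes, and 5 rose and 1 fell in the ΔNp73-labelled group, beside 16.8% and 16.1%. In that fit Tnf rose by 1.19 and 0.84 (limma adjusted p = 0.0159 and 0.027), Tnfsf10 rose by 0.72 and 0.76 (limma adjusted p = 0.0243 and 0.0106), and Fas was at -0.14 (limma adjusted p = 0.45) and fell by 0.37 in the ΔNp73-labelled group (limma adjusted p = 0.0431).

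Casp2, the caspase of the PIDDosome, was lower in all 6 Cre-treated tumours than in either control and was the most abundant of the 8 genes in the controls. It stood at 49.1 and 49.4 FPKM in the controls. The ΔNp63-labelled samples had 28.7, 34.5 and 35.2 FPKM, and the ΔNp73-labelled samples had 29.6, 29.7 and 34.8. The 2 Cre groups covered nearly the same range, 28.7 to 35.2 and 29.6 to 34.8, and neither overlapped with control. The means were 49.2 ± 0.244 (SD, n = 2), 32.8 ± 3.59 (n = 3) and 31.4 ± 2.94 (n = 3), a difference from the control mean of -33.3% and -36.3%. With all libraries the difference was -0.58 (SE 0.15, limma adjusted p = 0.236) and -0.64 (SE 0.15, limma adjusted p = 0.0999), and between the Cre groups it was -0.06, with a 95% interval from -0.38 to 0.26. In the fit without ΔNp63-labelled replicate 2, Casp2 fell by 0.61 in the ΔNp63-labelled group (limma adjusted p = 0.0201) and by 0.64 in the ΔNp73-labelled group (limma adjusted p = 0.00922).

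The mean of the thymocyte list stood with Casp2, below both controls, in all 6 Cre-treated libraries, and that of the proliferation list did so in 5. Not every single marker did so. The mean log2(FPKM + 1) of the 16 proliferation genes was 5.67 and 5.54 in the controls, 3.83 and 3.86 in ΔNp63-labelled replicates 1 and 3, and 3.87, 4.13 and 4.52 in the ΔNp73-labelled samples. In ΔNp63-labelled replicate 2 it was 5.70, above both controls, while Casp2 was at 34.5 FPKM. The thymocyte list was at 7.80 and 7.89 in the controls and at 6.43 to 7.51 in the other 6 libraries, lowest in ΔNp63-labelled replicate 2. The part of a changed cell content in the Casp2 result was not tested beyond these values.

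Both genes of the caspase-2 platform were measured, and 0 of the 2 passed the adjusted threshold with all libraries. Pidd1, listed under its older symbol Lrdd and the protein that nucleates the PIDDosome, was at 4.53 and 4.32 FPKM in the controls. It was at 1.29, 5.73 and 1.60 in the ΔNp63-labelled samples and at 1.45, 1.56 and 1.82 in the ΔNp73-labelled samples. Pidd1 was thus low in 5 Cre-treated libraries and highest of all in ΔNp63-labelled replicate 2, where Casp2 was low. Lrdd, without that replicate, fell by 1.15 (limma adjusted p = 0.00245) and 1.06 (limma adjusted p = 0.00165). Cradd, the adaptor that joins Pidd1 and caspase-2, was at 8.12 and 8.18 FPKM in controls, at 7.18, 3.80 and 6.74 in the ΔNp63-labelled group and at 6.94, 4.93 and 6.02 in the ΔNp73-labelled group. All 6 Cre-treated libraries were below the controls for Cradd, with differences of -0.44 (limma adjusted p = 0.496) and -0.40 (limma adjusted p = 0.39). Without ΔNp63-labelled replicate 2 these were -0.20 (limma adjusted p = 0.358) and -0.40 (limma adjusted p = 0.0569), so that library carried much of the ΔNp63-labelled difference.

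**Figure D3:**
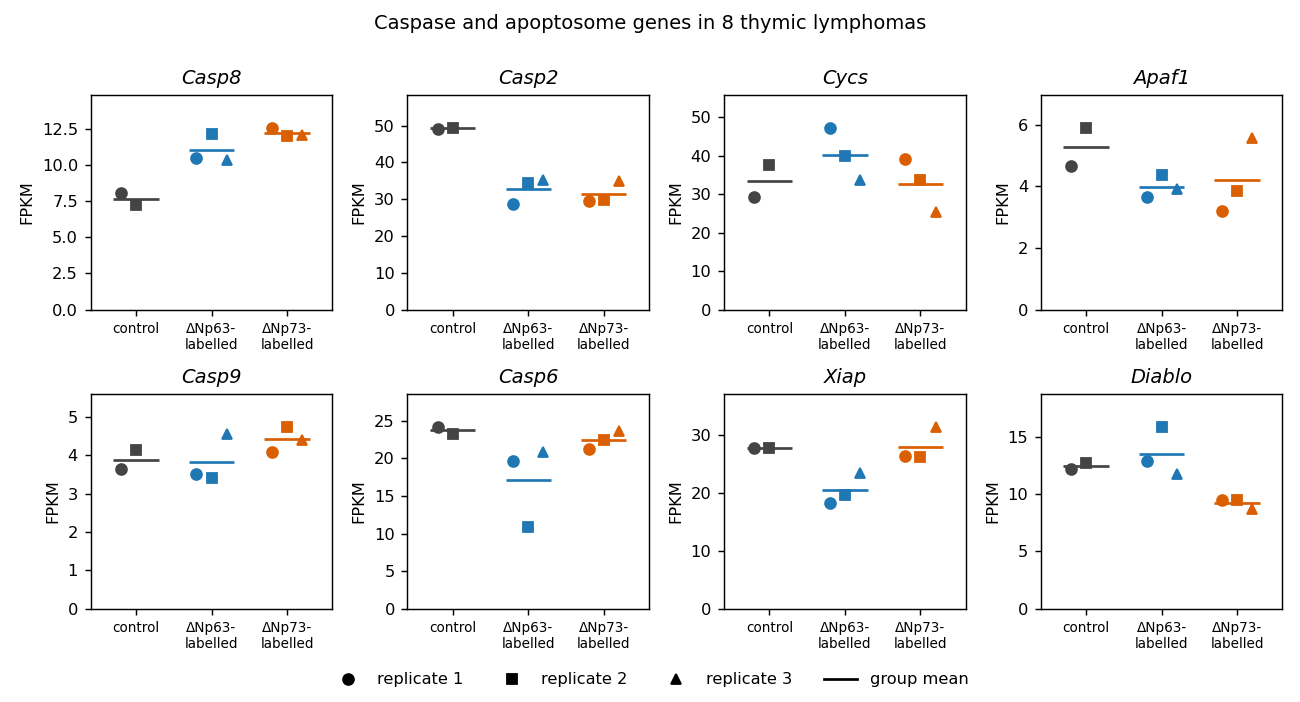
FPKM of the 8 genes in each library (y axes from 0), by group on the x axis, with 1 symbol per replicate and a line at the group mean. Casp2 is below and Casp8 (NM_009812) above both controls in all 6 Cre-treated libraries, Diablo is lowest in the ΔNp73-labelled group at 8.68 to 9.49 FPKM, and Xiap and Casp6 are lowest in the ΔNp63-labelled group.

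The 3 apoptosome genes showed no difference that passed the threshold with all libraries weighted alike in any of the 4 comparisons. Cycs, which encodes somatic cytochrome c, measured 29.2 and 37.6 FPKM in the controls, 47.3, 40.0 and 33.7 in the ΔNp63-labelled group and 39.1, 33.6 and 25.4 in the ΔNp73-labelled group. All groups overlapped, and the differences from control were 0.26 (95% interval -0.29 to 0.81) and -0.04 (-0.59 to 0.51). Casp9, the initiator that the apoptosome activates, was at 3.63 and 4.13 FPKM in control samples, at 3.50, 3.42 and 4.55 in the ΔNp63-labelled group and at 4.09, 4.74 and 4.41 in the ΔNp73-labelled group. Its range over all 8 libraries was 3.42 to 4.74 FPKM, and 8.36% of the genes tested had a smaller standard deviation on the log2 scale. The differences for Casp9 were -0.02 (95% interval -0.40 to 0.35) and 0.15 (-0.23 to 0.53). In the fit without ΔNp63-labelled replicate 2, Cycs was at 0.26 (limma adjusted p = 0.473) and -0.04 (limma adjusted p = 0.899), and Casp9 at 0.04 (limma adjusted p = 0.874) and 0.15 (limma adjusted p = 0.402). These intervals do not show that either gene was equal between groups.

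Apaf1, the scaffold of the apoptosome, had 2 entries with the same coding exons, 24 of 27 exons in common and starts 108 bases apart. NM_001042558, the entry with the higher mean, stood at 4.66 and 5.90 FPKM in control samples, at 3.64, 4.36 and 3.90 in the ΔNp63-labelled group and at 3.20, 3.86 and 5.58 in the ΔNp73-labelled group. By this entry the ΔNp63-labelled samples lay below both controls and the ΔNp73-labelled ones did not. The differences were -0.33 (SE 0.22, limma adjusted p = 0.551) and -0.29 (SE 0.22, limma adjusted p = 0.466), and -0.39 (limma adjusted p = 0.233) and -0.29 (limma adjusted p = 0.296) without ΔNp63-labelled replicate 2. NM_009684 measured 5.96 and 4.98 FPKM in controls, 2.32, 5.07 and 3.79 in the ΔNp63-labelled group and 3.94, 4.84 and 3.46 in the ΔNp73-labelled group. Summed over both entries, Apaf1 was 10.6 and 10.9 FPKM in the controls, 5.96, 9.44 and 7.70 in the ΔNp63-labelled group and 7.14, 8.70 and 9.05 in the ΔNp73-labelled group. The sum was thus below both controls in all 6 Cre-treated libraries, although neither entry alone was. The share of all summed symbols that lay so was not counted. The summed difference was -0.45 (limma adjusted p = 0.385) and -0.34 (limma adjusted p = 0.34). Without ΔNp63-labelled replicate 2, a fit chosen after the data were seen, summed Apaf1 fell by 0.60 in the ΔNp63-labelled group (limma adjusted p = 0.0297) and was at -0.34 in the ΔNp73-labelled group (limma adjusted p = 0.089).

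Of 15 tested genes for mitochondrial release and apoptosome regulation, 0 passed the adjusted threshold with all libraries, and at an unadjusted p under 0.05 the count was 1 higher and 0 lower in the ΔNp63-labelled group (5.96% and 7.03% of all genes) and 0 higher and 3 lower in the ΔNp73-labelled group (11.4% and 9.83%). With ΔNp63-labelled replicate 2 left out, 1 rose and 1 fell in the ΔNp63-labelled group (11.7% and 10.8% of all genes), and 2 rose and 3 fell in the ΔNp73-labelled group (16.8% and 16.1%). Bid, the protein that caspase-8 cuts to link the receptor route to the mitochondrion, was at 18.1 and 16.5 FPKM in controls, at 10.3, 18.4 and 10.4 in the ΔNp63-labelled group and at 9.04, 10.1 and 11.6 in the ΔNp73-labelled group. Like Pidd1, Bid was low in 5 Cre-treated libraries and highest in ΔNp63-labelled replicate 2, and without that replicate it fell by 0.69 (limma adjusted p = 0.0119) and 0.71 (limma adjusted p = 0.00559). Hspe1, a mitochondrial chaperonin, was at 60.2 and 65.1 FPKM in controls and at 81.8 to 86.2 in 5 Cre-treated libraries, with 180.0 in ΔNp63-labelled replicate 2. It rose by 0.42 and 0.41 without that replicate (limma adjusted p = 0.0243 and 0.0141). Anp32a, a regulator of apoptosome assembly, was at 160.0 and 124 FPKM in controls, at 125, 125 and 90.5 in the ΔNp63-labelled group and at 85.3, 89.3 and 92.9 in the ΔNp73-labelled group. Without ΔNp63-labelled replicate 2 it fell by 0.65 in the ΔNp73-labelled group (limma adjusted p = 0.0254) and was at -0.40 in the ΔNp63-labelled group (limma adjusted p = 0.164).

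Casp6, the executioner that cleaves lamin A, was below all 5 other libraries in the ΔNp63-labelled group, but its distance from them was small outside replicate 2. It was at 24.2 and 23.3 FPKM in control samples, at 19.6, 10.9 and 20.9 in the ΔNp63-labelled group and at 21.3, 22.4 and 23.7 in the ΔNp73-labelled group. The highest ΔNp63-labelled value and the lowest ΔNp73-labelled value were 20.9 and 21.3. The difference from control was -0.50 (SE 0.26, limma adjusted p = 0.462) with all libraries and -0.22 (SE 0.10, limma adjusted p = 0.157) without replicate 2, so that library moved the value by more than 1.5 times.

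The inflammatory caspases, a group known for cytokine release and pyroptosis, were higher in most Cre-treated libraries but not in ΔNp63-labelled replicate 2. Casp1 was at 6.86 and 5.73 FPKM in controls, at 22.4, 3.98 and 16.0 in the ΔNp63-labelled group and at 20.1, 20.6 and 19.5 in the ΔNp73-labelled group. Casp4 was at 2.64 and 2.70 FPKM in controls, at 3.13, 0.677 and 2.11 in the ΔNp63-labelled group and at 15.3, 14.0 and 6.34 in the ΔNp73-labelled group. Casp12 was at 2.21 and 1.31 FPKM in controls, at 5.51, 1.21 and 4.68 in the ΔNp63-labelled group and at 10.8, 6.61 and 5.92 in the ΔNp73-labelled group. Casp1 and Casp12 thus stood apart from control in both Cre groups once replicate 2 was left aside, and Casp4 in the ΔNp73-labelled group. Without replicate 2, Casp1 rose by 1.45 and 1.53 (limma adjusted p = 0.00234 and 0.00115) and Casp12 rose by 1.16 and 1.65 (limma adjusted p = 0.0263 and 0.00399). Casp4 rose by 1.73 in the ΔNp73-labelled group (limma adjusted p = 0.00949) and was at -0.03 in the ΔNp63-labelled group (limma adjusted p = 0.956). The macrophage and interferon lists were high in the same 5 libraries as Casp1 and Casp12, while Casp4 was high in the ΔNp73-labelled ones only. The part of these lists in the caspase values was not tested.

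Of 11 tested caspase substrates, 0 passed the adjusted threshold with all libraries (0.0929% and 0.0542% of all genes). In the ΔNp63-labelled and the ΔNp73-labelled comparison 9 and 8 stood below control, with medians of -0.11 and -0.32, beside -0.02 and -0.07 over all genes. The share of all genes below control was not counted. At an unadjusted p under 0.05, 0 were higher and 1 lower in the first comparison (5.96% and 7.03% of all genes). In the second, 2 were higher and 2 lower (11.4% and 9.83%). When ΔNp63-labelled replicate 2 was left out, 1 rose and 5 fell in the first comparison (11.7% and 10.8% of all genes) and 2 rose and 5 fell in the second (16.8% and 16.1%). Lmnb1, a B-type lamin of the nuclear envelope that dividing cells hold in quantity, was at 74.0 and 69.5 FPKM in controls, at 26.1, 75.6 and 23.0 in the ΔNp63-labelled group and at 21.0, 26.3 and 35.1 in the ΔNp73-labelled group. Lmna, the lamin that caspase-6 cleaves, was at 3.35 and 2.98 FPKM in controls, at 3.49, 3.57 and 4.62 in the ΔNp63-labelled group and at 8.67, 8.05 and 6.49 in the ΔNp73-labelled group. The 2 lamins thus lay on opposite sides of the controls in the ΔNp73-labelled samples. With all libraries Lmna was at 1.06 in that group (limma adjusted p = 0.0731), and without ΔNp63-labelled replicate 2 it rose by 1.06 (limma adjusted p = 0.00334) while Lmnb1 fell by 1.38 (limma adjusted p = 0.00319). Vim, an intermediate filament gene of stromal and myeloid cells, was at 122 and 120.0 FPKM in controls, at 213, 63.1 and 241 in the ΔNp63-labelled group and at 413, 351 and 346 in the ΔNp73-labelled group. Without that replicate Vim rose by 0.90 and 1.60 (limma adjusted p = 0.00512 and 0.000668). The fibroblast list was at 3.28 and 3.11 in the controls and at 4.75 to 5.0 in the ΔNp73-labelled samples, and its part in the Vim and Lmna values was not tested.

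Xiap, the caspase inhibitor, had its lowest values in the ΔNp63-labelled group. It was at 27.7 and 27.8 FPKM in control samples, at 18.3, 19.6 and 23.4 in the ΔNp63-labelled group and at 26.3, 26.2 and 31.4 in the ΔNp73-labelled group. The ΔNp63-labelled samples lay below all 5 others, and the ΔNp73-labelled samples lay on both sides of the controls. The means were 27.7 ± 0.0809 (SD, n = 2), 20.4 ± 2.66 (n = 3) and 28.0 ± 2.99 (n = 3). With all libraries weighted alike the difference did not pass the threshold: it was -0.43 against control (SE 0.16, limma adjusted p = 0.331). The ΔNp73-labelled group was 0.44 above the ΔNp63-labelled group (SE 0.14, limma adjusted p = 0.439). Without replicate 2 these were -0.41 (limma adjusted p = 0.0921) and 0.41 (limma adjusted p = 0.23), still short of the threshold. In a fit that gives libraries departing from their group less weight, they were -0.46 (limma adjusted p = 0.0172) and 0.42 (limma adjusted p = 0.077). Xiap thus passed against control in that fit only, where 34.7% of all genes passed.

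Diablo, which frees caspases from Xiap, had its lowest values in the ΔNp73-labelled group. It was at 12.2 and 12.7 FPKM in control samples, at 12.9, 15.9 and 11.8 in the ΔNp63-labelled group and at 9.48, 9.49 and 8.68 in the ΔNp73-labelled group. The ΔNp73-labelled samples lay below all 5 others, and the ΔNp63-labelled samples spread around the controls. The means were 12.5 ± 0.363 (SD, n = 2), 13.5 ± 2.13 (n = 3) and 9.22 ± 0.465 (n = 3), a difference of -26.0% from the control mean for the ΔNp73-labelled group. With all libraries the difference was -0.40 against control (SE 0.16, limma adjusted p = 0.211) and -0.50 against the ΔNp63-labelled group (SE 0.14, limma adjusted p = 0.421). Diablo fell by 0.40 against control without ΔNp63-labelled replicate 2 (limma adjusted p = 0.018), while the difference between the Cre groups, -0.39, did not pass (limma adjusted p = 0.152).

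**Figure D4:**
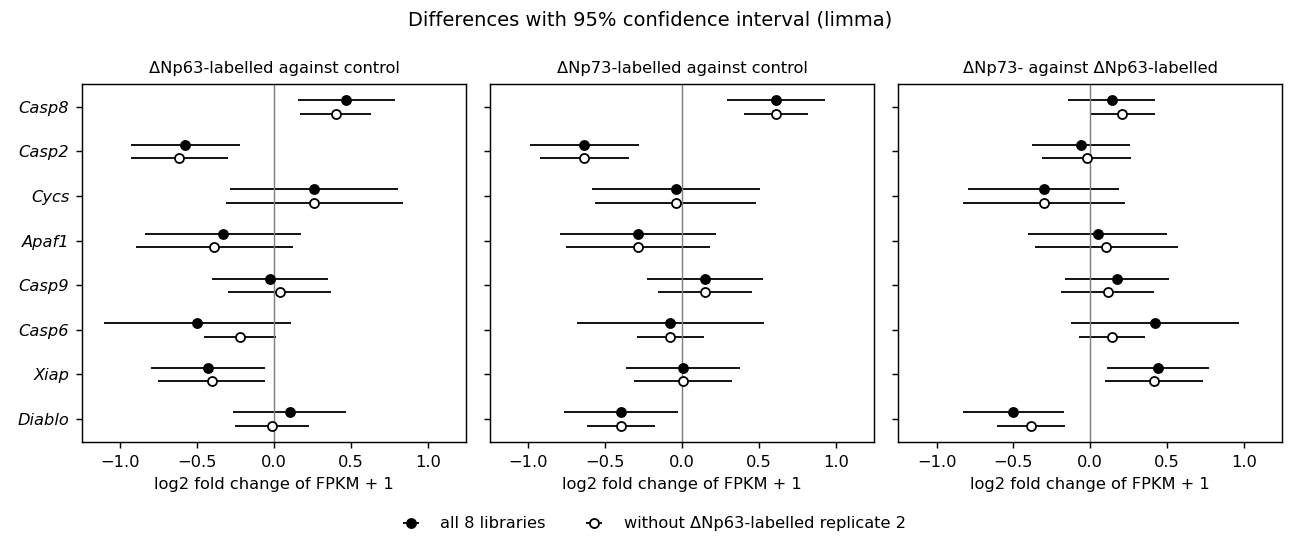
Log2 fold change of FPKM + 1 with its 95% interval (limma) for the 8 genes in the comparisons named above each panel, with all 8 libraries and without ΔNp63-labelled replicate 2. Casp2 lies at -0.58 and -0.64 and Casp8 (NM_009812) at 0.47 and 0.61 against control, and the intervals narrow for most genes when that library is left out.

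Among 10 tested inhibitor of apoptosis genes and antagonists, 0 passed the adjusted threshold with all libraries, and at an unadjusted p under 0.05 the count was 3 higher and 1 lower in the ΔNp63-labelled group (5.96% and 7.03% of all genes) and 4 higher and 1 lower in the ΔNp73-labelled group (11.4% and 9.83%). In the fit without ΔNp63-labelled replicate 2, 3 rose and 2 fell in the ΔNp63-labelled group (11.7% and 10.8% of all genes) and 6 rose and 1 fell in the ΔNp73-labelled group (16.8% and 16.1%). Xaf1, an interferon-induced antagonist of Xiap, was at 4.74 and 4.33 FPKM in controls, at 82.0, 32.9 and 108 in the ΔNp63-labelled group and at 17.7, 19.7 and 79.5 in the ΔNp73-labelled group. It was above both controls in all 6 Cre-treated libraries, including ΔNp63-labelled replicate 2, where the interferon list stood at the control level. Its difference was 3.61 (SE 0.71, limma adjusted p = 0.164) and 2.51 (SE 0.71, limma adjusted p = 0.124), and without replicate 2 it rose by 4.11 and 2.51 (limma adjusted p = 0.00635 and 0.0182). Birc5, the gene of survivin, which acts in mitosis, was at 90.2 and 82.5 FPKM in controls, at 22.3, 121 and 20.5 in the ΔNp63-labelled group and at 18.2, 27.1 and 30.7 in the ΔNp73-labelled group. It followed the proliferation list, high in the controls and in ΔNp63-labelled replicate 2, and fell by 1.96 and 1.76 without that library (limma adjusted p = 0.00243 and 0.00172). Naip5, a sensor of the inflammasome with the domain of this family, was at 0.442 and 0.666 FPKM in controls and at 1.04 to 2.10 in the other 6 libraries. Without replicate 2 it rose by 0.73 in the ΔNp73-labelled group (limma adjusted p = 0.0181) and was at 0.55 in the ΔNp63-labelled group (limma adjusted p = 0.0784).

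A ratio of 2 genes within a library is not moved by a linear scaling of that library, but the quantile normalisation is not linear and can move it. In all, 3 such ratios were taken after the values had been seen, as descriptions without a test. The ratio of Cycs to Apaf1 (NM_001042558) was 6.27 and 6.38 in the controls, 13.0, 9.17 and 8.64 in the ΔNp63-labelled group and 12.2, 8.70 and 4.54 in the ΔNp73-labelled group, which lay on both sides of the controls. The ratio of Casp8 (NM_009812) to Casp2 was 0.164 and 0.147 in the controls, 0.364, 0.353 and 0.296 in the ΔNp63-labelled group and 0.424, 0.404 and 0.347 in the ΔNp73-labelled group. The lowest Cre-treated library, at 0.296, was thus above the higher control. This had to be so, since Casp8 by this entry lay above and Casp2 below both controls in all 6 Cre-treated libraries. The ratio with both Casp8 entries summed was not taken. That sum was lowest of all in ΔNp63-labelled replicate 2, at 12.4 FPKM. The ratio of Diablo to Xiap was 0.441 and 0.457 in the controls, 0.704, 0.813 and 0.506 in the ΔNp63-labelled group and 0.360, 0.363 and 0.276 in the ΔNp73-labelled group. The 3 groups did not overlap in this ratio, which was highest in the ΔNp63-labelled samples and lowest in the ΔNp73-labelled samples. Xiap was lower in the former and Diablo lower in the latter, as given above. The pair was taken after those values had been seen, so the separation is not independent of that choice. The share of gene pairs that separate in this way was not counted. With all libraries neither gene passed between the Cre groups (limma adjusted p = 0.421 for Diablo and 0.439 for Xiap).

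**Figure D5:**
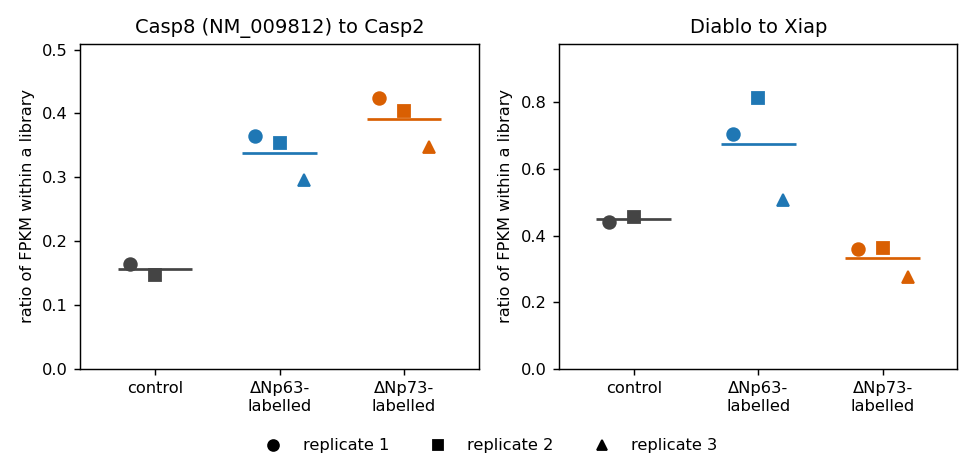
Ratio of FPKM within each library (y axes from 0) for Casp8 (NM_009812) to Casp2 and for Diablo to Xiap, by group on the x axis, with 1 symbol per replicate and a line at the group mean. The Diablo to Xiap ratio is 0.506 to 0.813 in the ΔNp63-labelled group, 0.441 and 0.457 in the controls and 0.276 to 0.363 in the ΔNp73-labelled group.

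Counted over the 8 genes, 0 passed the adjusted threshold in any comparison with all libraries, where 0.0929% of all genes passed for the ΔNp63-labelled group, 0.0542% for the ΔNp73-labelled group, 0.116% for both Cre groups together and 0.0542% between the Cre groups. At an unadjusted p under 0.05 the counts were 3 of 8 against control in the ΔNp63-labelled group (Casp2, Casp8 and Xiap, beside 13.0% of all genes) and 3 of 8 in the ΔNp73-labelled group (Casp2, Casp8 and Diablo, beside 21.3%). They were 2 of 8 for both Cre groups together (Casp2 and Casp8, beside 18.6%) and 2 of 8 between the Cre groups (Diablo and Xiap, beside 10.5%). Without ΔNp63-labelled replicate 2, 2 of 8 passed the adjusted threshold in the ΔNp63-labelled group, where 22.5% of all genes passed, and 3 of 8 in the ΔNp73-labelled group, where 33.0% passed. Both Cre groups together had 2 of 8 beside 32.8%, and the comparison between Cre groups had 0 of 8 beside 0.149%. With array weights, which give a library that departs from its group less weight, 3, 3, 4 and 0 of 8 passed, beside 34.7%, 50.8%, 48.7% and 2.66% of all genes. These were Casp2 and Casp8 in each comparison with control, with Xiap in the ΔNp63-labelled group, Diablo in the ΔNp73-labelled group, and Apaf1 and Xiap in both together. With only the groups compared in the fit, 0, 3 and 0 of 8 passed for the ΔNp63-labelled group, the ΔNp73-labelled group and the contrast between them, beside 0.0396%, 30.9% and 0.0553%. Wherever genes of the 8 passed the adjusted threshold, their share lay near that of all genes.

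The groups of some genes did not overlap, whatever their test. These comparisons use 1 entry per symbol, NM_009812 for Casp8 and NM_001042558 for Apaf1. By these entries Casp8 was above control in all ΔNp63-labelled samples, as were 12.6% of all genes. Casp2, Casp6, Apaf1 and Xiap were lower, as were 17.7%. Summed over both entries, Casp8 in ΔNp63-labelled replicate 2 was at 12.4 FPKM, below the controls at 16.2 and 14.5. By NM_009684 the Apaf1 groups overlapped, with 5.07 FPKM in that library against 4.98 in 1 control, although the Apaf1 sums did not. Casp8 was higher in the ΔNp73-labelled group than in control, as were 27.7% of all genes, and Casp2 and Diablo were lower, as were 35.7%. With the Cre groups pooled against control, Casp8 was higher (8.47% of all genes) and Casp2 lower (12.7%). Diablo was below all 5 other libraries in the ΔNp73-labelled group, as were 5.8% of all genes, and Casp6 and Xiap were below all 5 others in the ΔNp63-labelled group, as were 2.64%. Between the Cre groups, Casp6 and Xiap were higher (10.3%) and Diablo lower (8.58%) in the ΔNp73-labelled group. The median difference of the 8 genes was -0.18 and -0.06 against control, beside -0.02 and -0.07 over all genes tested. The 2 Cre groups share their control libraries, so their differences from control are given side by side and not compared.

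By mean FPKM, with 1 entry each for Casp8 (NM_009812) and Apaf1 (NM_001042558), the 8 genes fell in the order Casp2, Cycs, Xiap, Casp6, Diablo, Casp8, Apaf1 and Casp9, and FPKM is scaled by transcript length. Casp2 and Cycs had means of 36.4 ± 8.34 and 35.7 ± 6.83 FPKM (SD, n = 8) and changed places between libraries, with Casp2 first in 4 of 8. Diablo and Casp8 (NM_009812), at 11.6 ± 2.38 and 10.6 ± 2.01, also changed places, with Diablo the higher in both controls and Casp8 the higher in the ΔNp73-labelled samples. Apaf1 and Casp9, at 4.39 ± 0.946 and 4.06 ± 0.498, were the lowest pair and did not differ beyond their spread. Both places hold for single entries only: summed over both entries, Casp8 exceeded Diablo in both controls, at 16.2 and 14.5 against 12.2 and 12.7 FPKM, and Apaf1, at 5.96 to 10.9, exceeded Casp9 in every library. Casp2 exceeded 87.5% of the genes tested and Casp9 exceeded 32.4%.

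The genes whose pattern over the 8 libraries was most like each of the 8 are given as a description, since the 8 points share group, library and normalisation. Casp2 was most like Rad54l2 (Pearson r = 0.989, and 0.99 over 7 libraries without ΔNp63-labelled replicate 2) and Casp8 most like Tagln2 (0.988 and 0.99). Casp6 was most like Rasa1 (0.998 and 0.978) and Xiap most like Atxn3 (0.984 and 0.979). Diablo was most like Zmat5 (0.975 and 0.971), Apaf1 like Glb1 (0.962 and 0.966), Cycs like Ndufb4 (0.96 and 0.963) and Casp9 like Dync1li1 (0.952 and 0.973). Each second gene came close behind: Crnkl1 for Casp2, Prkar2a for Casp8, Herc2 for Casp6, Rlim for Xiap, Mrpl41 for Diablo, Vps26b for Apaf1, Gpihbp1 for Cycs and Ncoa4 for Casp9. Of 11522 genes compared, 244 had r above 0.9 with Casp2, 83 with Casp8, 539 with Casp6, 100 with Diablo and 6 with Cycs.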

How the data were processed

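RNA from 8 thymic lymphoma libraries (2 control, 3 ΔNp63-labelled, 3 ΔNp73-labelled) was prepared with TRIZOL LS and TruSeq, per the labels' protocols. The authors deposited 1 table of quantile-normalised FPKM with 16589 entries under 13681 symbols; 2113 symbols have several entries. TopHat2 2.0, Cufflinks 2.0 and build mm9 are listed in the submitters' processing notes, without a step for each. Depth is unknown. The normalisation hides any change in total RNA.

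The entry with the highest mean was kept per symbol, and 35 symbols turned into dates were restored from the identifier. Genes with at least 1 FPKM in at least 2 libraries were tested on log2(FPKM + 1) with limma 3.58.1 (R 4.3.3; intensity trend, two-sided, 1 model over all 8 libraries with 5 residual degrees of freedom), and p-values were adjusted by Benjamini-Hochberg over the 12921 genes tested (threshold 0.05). The fit was tested on simulated data. Alternatives were a pseudocount of 0.1, no filter, a filter of at least 5 FPKM, summed entries, array weights, only the groups compared, and each library left out.

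The 8 genes, 6 pathway lists (61 genes, 57 in the table) and 9 marker lists (104 genes, 102 in the table) were chosen with earlier results of these data known. Named were all 8 genes, up to 3 genes per pathway list with the largest difference from control, and the 2 genes most correlated with each of the 8. Promoter sequences came from RefSeq (GRCm38.p6) and matched all 8 symbols. Exon structure came from GENCODE M21. Some genes of the pathway lists are not reported here.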

Additional observations from a re-analysis of the deposited data

How the results depend on the processing

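No paired analysis was possible because the labels give no replicate numbers or pairs, and the numbers used here were assigned in sample order. With FPKM alone, neither depth nor a detection limit can be given, and 2 control libraries limit the precision. The count of genes passing rested on ΔNp63-labelled replicate 2. Leaving out 1 library at a time gave 3 to 2882 genes for the ΔNp63-labelled group, 0 to 4212 for the ΔNp73-labelled group, 0 to 4194 for both and 6 to 19 between the Cre groups, each maximum without that replicate. Those of the 8 genes passing ranged from 0 to 2, 0 to 3 and 0 to 2 in the comparisons with control. Array weights, which gave that library the lowest weight (0.0567), called 4480, 6569, 6296 and 344 genes, with 3, 3 and 4 of the 8 genes in the comparisons with control. Fitting only the groups compared called 5 genes for the ΔNp63-labelled group and 3890, with 3 of the 8 genes (Casp2, Casp8, Diablo), for the ΔNp73-labelled group; it was not run for both groups together. A pseudocount of 0.1 called 18 genes for the ΔNp73-labelled group.

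Of 436 alternatives for single genes of the 8, 404 kept direction and side of the threshold, 20 kept direction and newly passed, and 12 turned direction. Leaving out 1 library gave, for the ΔNp63-labelled group, Casp9 -0.13 to 0.049, Diablo -0.012 to 0.19 and, outside the 8 genes, Vim -0.059 to 0.90. It gave, for the ΔNp73-labelled group, Xiap -0.077 to 0.051 and Cycs -0.22 to 0.13. For both together it gave Casp9 -0.011 to 0.14 and Cycs -0.067 to 0.29, and between the Cre groups Apaf1 -0.13 to 0.19. Array weights gave -0.045 for Xiap (ΔNp73-labelled) and 0.009 for Casp4 (ΔNp63-labelled). The Casp8 entry NM_001080126 went from -0.77 to 0.30, from -0.27 to 0.26 (both groups) and from 1.0 to -0.07 (between Cre groups) without ΔNp63-labelled replicate 2. Apart from the lower value of that library in this entry, the causes were not tested. The filter of 5 FPKM left no value for Casp9. The alternatives for single entries and for sums without replicate 2 were chosen after seeing the data.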
